A study of Homo sapiens with 16 samples.

Results

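Epithelial keratin and junction mRNAs were followed through a map of pseudouridine-dependent reverse transcription stops. The 8 genes were KRT8, KRT18, KRT19, CLDN4, CLDN3, EPCAM, CDH1 and FAT1. They were chosen by name as epithelial genes, with earlier results of these data known. Each is described by the reads that stop at, and the reads that cover, its listed positions. In all, 5144 of the 719918 positions listed in any of the 10 deposited tables lay in these genes. The tables came from 16 libraries in 8 groups of 2 replicates. HCT116-shDKC1 cells are a population of the colorectal carcinoma line HCT116 in which a short hairpin RNA lowers DKC1, and the labels give their genotype as KD DKC1. They gave CMC+ with Terminator and CMC- libraries. Wild-type HCT116 cells gave CMC+ with Terminator, CMC+ without Terminator, and CMC- libraries. HEK293T, a transformed embryonic kidney line labelled wild type, gave the same 3 kinds. All groups shared fragmented polyadenylated RNA. The knockdown rests on 1 named hairpin, and whether the cells are 1 clone is not stated. The labels do not say that replicates came from separate cultures, so p-values measure only the spread between these libraries, which may be technical.

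Keratins are the intermediate filament proteins of epithelial cells; KRT8 pairs with the type I keratins KRT18 and KRT19 in simple epithelia such as the gut lining. CLDN3 and CLDN4 are claudins, membrane proteins that set the permeability of tight junctions. CDH1, E-cadherin, joins neighbouring cells at adherens junctions, EPCAM is an epithelial cell adhesion molecule, and FAT1 is a giant atypical cadherin. Pseudouridine is an isomer of uridine made in RNA by pseudouridine synthases. DKC1, dyskerin, is the synthase that H/ACA small nucleolar RNAs guide to its targets, while other synthases work without a guide. The reagent CMC forms an adduct that persists on pseudouridine and halts reverse transcriptase. Terminator is an exonuclease that digests RNA carrying a 5′ monophosphate. A stop ratio is the reads that stop at a position divided by the reads that cover it, and is given here as a percentage.

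The 7 coding U whose stop percentages or changes are described one by one, and for which a change was called in at least 1 population, are shown with 10 bases on each side, because neighbouring bases enter the description of the stops. The sequences read 5′ to 3′ on the RNA strand of hg38, and the capital T marks the listed U.
KRT8 nt 426, chr12:52904742-52904762, minus strand, exon 2: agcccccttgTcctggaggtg
KRT8 nt 1477, chr12:52897589-52897609, minus strand, exon 9: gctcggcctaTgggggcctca
KRT18 nt 280, chr12:52949233-52949253, plus strand, exon 1: ggcgcccagcTacggcgcccg
KRT18 nt 965, chr12:52951568-52951588, plus strand, exon 4: atggcagacaTccgggcccaa
KRT19 nt 242, chr17:41528057-41528077, minus strand, exon 1: ctcgggggccTacggcggcgg
KRT19 nt 499, chr17:41525246-41525266, minus strand, exon 2: gtgccaccatTgagaactcca
FAT1 nt 10638, chr4:186606159-186606179, minus strand, exon 17: ataatggcagTccacccagag
The position number counts from the start of the reference transcript of each gene. Of the 5144 listed positions, 5130 (99.7%) fell in these transcripts, with 304 in the 5′ UTR, 4482 (87.1%) in the coding region and 344 in the 3′ UTR. The stop codon was counted with the 3′ UTR.

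The type II keratin KRT8 (ENSG00000170421.12, hg38 chr12:52897194-52906618, minus strand) had 1027 listed positions over a transcript of 1882 nt. KRT18 (ENSG00000111057.11, chr12:52948964-52952901, plus strand) had 593 over 1562 nt, and KRT19 (ENSG00000171345.13, chr17:41523617-41528308, minus strand) had 685 over 1390 nt. The keratins were thus listed along much of their length. Among the junction genes, CLDN4 (ENSG00000189143.9, chr7:73830863-73832693, plus strand) had 285 positions over 1831 nt. FAT1 (ENSG00000083857.14, chr4:186587783-186726722, minus strand) had 2434 positions over 14963 nt. The other 3 genes were sparse. CLDN3 (ENSG00000165215.6, chr7:73768997-73770270, minus strand) had 17, EPCAM (ENSG00000119888.10, chr2:47369148-47387034, plus strand) had 89, and CDH1 (ENSG00000039068.19, chr16:68737225-68835548, plus strand) had 14.

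The 8 mRNAs were listed almost wholly in the HCT116 cells. The 2 shDKC1 Terminator tables held 812 and 841 member positions, against 1053 and 1097 in the 2 HCT116 Terminator tables. The 2 HCT116 tables of CMC+ without Terminator held 1930 and 2797. The 2 HEK293T Terminator tables held 1 and 3, and the 2 HEK293T tables without Terminator held 2 each, out of 157330 to 234168 listed positions per table. The HCT116 and shDKC1 tables held 87358 to 114563 listed positions each. How far other genes differ in listing between the lines was not counted. The HEK293T listings were 7 distinct positions, 2 in KRT18 and 5 in FAT1, each with 5 to 12 stop reads among 7.5 to 49 covering reads. KRT8, KRT19, CLDN4, CLDN3, EPCAM and CDH1 were not listed in HEK293T at any position. A listed position has 5 stop reads or more in the treated library, 1 or more in the control, and a treated ratio no lower than that of the control. A gene that is not listed was thus not shown to be absent.

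**Figure D1:**
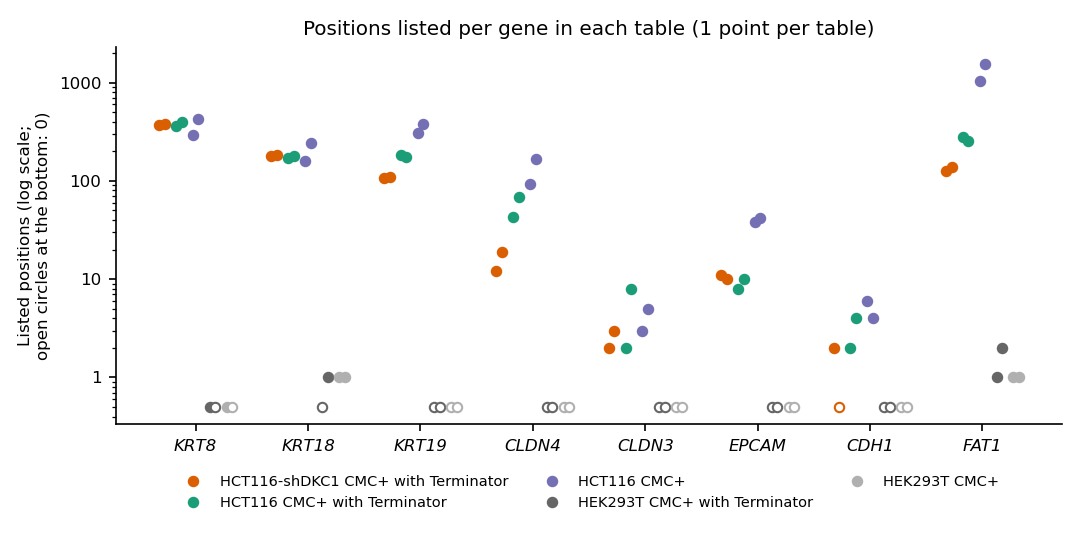
Number of listed positions (y axis, log scale, with 0 as open circles at the bottom) of each of the 8 genes (x axis), with a point for each table, coloured by group. The HCT116-shDKC1 and HCT116 points lie above those of HEK293T in every gene except CDH1, where 1 shDKC1 table also has 0.

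The intermediate filament gene VIM, a mesenchymal marker, showed the reverse listing, at 384, 369, 451 and 459 positions in the HEK293T tables and at 0 in all 6 HCT116 and shDKC1 tables. Of the 10 mesenchymal genes looked up, 6 and 5 were listed in the HEK293T Terminator tables and 2 and 3 in those without Terminator. VIM held 384 of the 397 and 369 of the 383 mesenchymal positions in the former. Of 7 neuronal and adrenal genes described in HEK293 lines, 4, 1, 1 and 1 were listed in HEK293T, and 1 in each table of the HCT116 cells. Among them TUBB3 had 1, 4, 0 and 0 positions in HEK293T, against 18 and 8 in the shDKC1 and 26 and 15 in the HCT116 Terminator tables. Of the mesenchymal genes, only TWIST1 was listed in the HCT116 cells, at 1 position in 1 table of shDKC1 and 1 of HCT116. Among 9 intestinal marker genes, 0 to 2 were listed in any table of the HCT116 cells, so these markers did not show the gut identity of the line. CDX2, one of the 9, had at most 1 position in a table of those cells, and 5, 8, 0 and 1 in the HEK293T tables. Library totals, worked out from the RPM values, were 22493496 to 31261784 reads in the HCT116 and shDKC1 Terminator tables, 8653041 to 10230136 in the HCT116 tables without Terminator, and 14904452 to 19063722 in HEK293T. The targeted gene DKC1 was listed at 2 and 1 positions in the shDKC1 Terminator tables and at 2 and 3 in the HCT116 Terminator tables. No DKC1 position was listed in all 4, so the knockdown could not be tested. At 1 U of DKC1, CMC- covering reads were 5 in shDKC1 replicate 1, against 8 and 11 in the HCT116 replicates.

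The reads of KRT8 and KRT18 are shared with many processed pseudogenes, and their values are therefore uncertain. In the Terminator tables of HCT116 and shDKC1, which hold whole reads, 552 to 713 positions were listed in 46 to 49 KRT8 pseudogenes. In the HCT116 tables without Terminator, which hold fractional reads, 27 to 28 were listed in 10. The HCT116 CMC- libraries appear in both kinds of table. At positions in both, the median covering count of the fractional tables was 81.5% and 81.3% of that in the whole-read tables for KRT8, and 80.4% and 83.3% for KRT18. For KRT19 it was 97% and 97.9%, for CLDN4 98.3% and 98%, and for FAT1 98.9% in both replicates, against 61.6% and 61.2% over all positions. EPCAM stood at 92.4% from 2 positions of replicate 1, and CLDN3 at 85.2% and 58.7% from 1 position in each replicate. Among the 5 genes with more than 2 such positions, KRT19, CLDN4 and FAT1 changed least with the way of counting.

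Coverage along the mRNAs changed shape with Terminator. The quantity compared is the CMC+ covering reads as a share of the library total, divided by the same share in the CMC- library of the same table, over listed positions. In FAT1, the first 200 nt had a median ratio of 2.984 and 4.65 in shDKC1 and of 4.832 and 2.185 in HCT116, over 13 to 17 positions a table. Beyond 200 nt it was 0.636 and 0.643 in shDKC1 and 0.651 and 0.551 in HCT116, so every table was higher at the 5′ end. Without Terminator the FAT1 ratios were 1.28 and 0.948 at the 5′ end and 1.091 and 0.98 beyond it.

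EPCAM, although sparse, had the same form: its first 200 nt gave 5.088 and 4.259 in shDKC1 and 6.366 and 3.798 in HCT116, from 2 to 5 positions a table. Its ratios beyond were 1.413 and 1.178 in shDKC1 and 1.488 and 1.129 in HCT116. Without Terminator the EPCAM 5′ end stood at 0.973 and 0.815. The values near the start of EPCAM and FAT1 were above those beyond in each of the 4 Terminator tables. KRT8 gave 1.155 and 3.467 in shDKC1 and 1.457 and 1.308 in HCT116 at the 5′ end, against 0.657 to 0.671 beyond. KRT19 was flatter, at 0.935 to 1.05 near the start and 0.627 to 0.66 beyond. CLDN4 gave 7.823 and 4.035 in shDKC1, and 0.836 and 4.249 in HCT116, so the HCT116 table of 0.836, with a single position there, stood apart from the other 3. Of the 4 Terminator tables, only those of HCT116 listed the KRT18 start, at 2.307 over 4 positions and 3.607 at 1 position. A higher coverage ratio is a description of listed positions and was not tested. Listing requires stops, so the positions compared differ between tables.

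**Figure D2:**
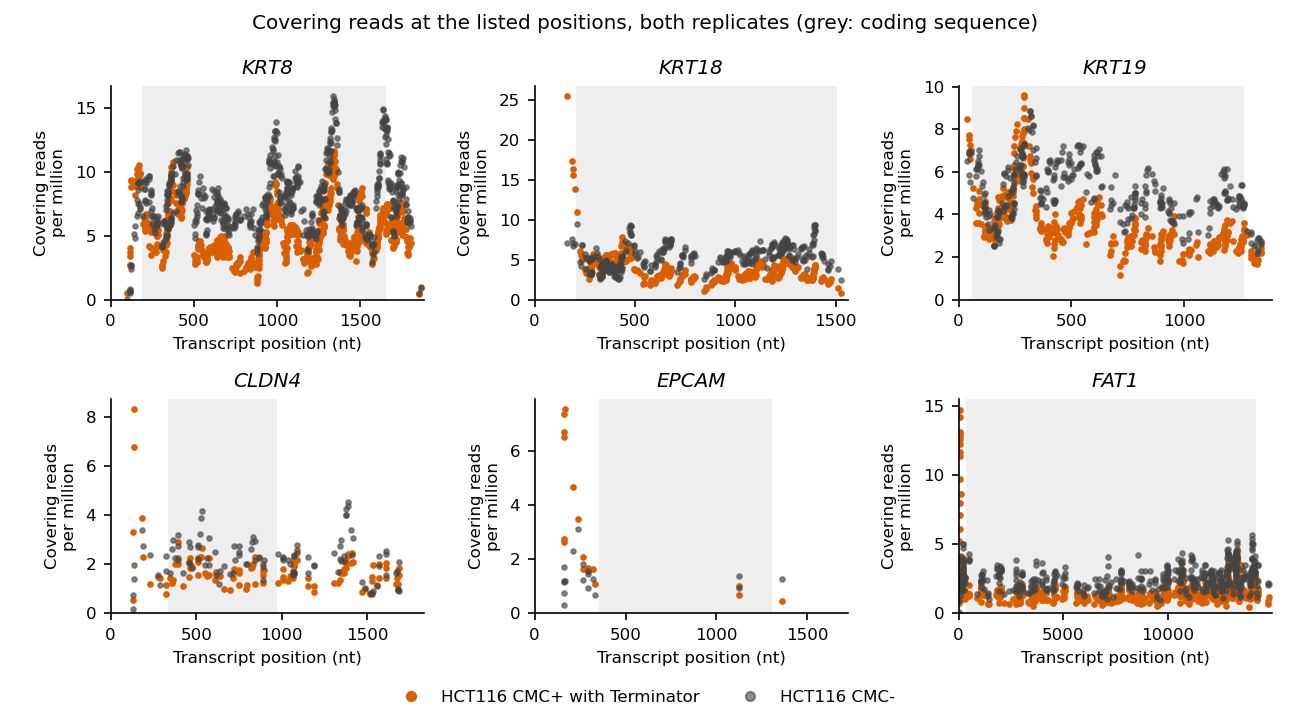
Covering reads scaled to the library total (RPM, y axis) at listed positions along 6 mRNAs (x axis, nt from the transcript start) in both replicates of HCT116 CMC+ with Terminator and CMC-; grey marks the coding region. CMC+ with Terminator lies above CMC- near the start of FAT1 and EPCAM, and below it along most of the keratins and the rest of FAT1.

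The question of the Terminator tables was at which positions CMC raised the stop ratio. Of the member positions, 181 were listed in all 4 Terminator tables, 89 of them in KRT8, 32 in KRT18, 30 in KRT19, 28 in FAT1 and 2 in CLDN4. Positions with 10 stop reads or more in 2 or more libraries were kept, which left 127 for the test, 45 of them U. A position was called where edgeR's quasi-likelihood test gave a Benjamini-Hochberg adjusted p under 0.05 and the fold was at least 2. Listing already requires a CMC+ ratio no lower than the CMC- ratio, so the direction was fixed by the files. The filter can also keep a position because its CMC+ libraries are high, so the counts that follow describe the positions that passed.

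In shDKC1, 56 of the 127 were called (44.1%), against 19.7% of all 26153 positions tested and 25.4% of the protein-coding ones. In HCT116, 71 were called (55.9%), against 24.9% of all positions and 32.1% of the protein-coding ones. The median log2 change of the members was 1.01 in shDKC1 and 1.11 in HCT116, against 0.68 and 0.77 over protein-coding positions. The tested members had fewer covering reads in every library. In HCT116 CMC+ with Terminator replicate 1 the median was 102, against 178 over protein-coding and 474 over all positions. With fewer covering reads, the fixed filter on stop reads asks for a higher ratio. Its part in these shares and changes was not tested. Called positions were not mainly U: 19 of 45 U and 37 of 82 other bases were called in shDKC1 (all positions: 21.9% of U, 18.4% of other bases), and 25 U and 46 other bases in HCT116 (all positions: 27% of U, 23.7% of other bases). In HCT116 the other bases were 16 of 21 A, 12 of 21 C and 18 of 40 G. The matching shares over all tested A, C and G were not worked out. In all, 48 positions were called in both populations, 16 of them U, and 48 in neither. Within 2 nt of another called position lay 32 of the 56 in shDKC1 and 32 of the 71 in HCT116, and 55 of the 127 tested positions lay as close to another tested one. The counts depended on single libraries: without 1 of the shDKC1 libraries they were 6 to 7 U and 18 to 22 other bases in shDKC1, and without 1 of the HCT116 libraries 7 to 13 U and 18 to 30 other bases in HCT116. DESeq2 called 2 U and 13 other bases in shDKC1, and 5 and 18 in HCT116.

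By gene, KRT8 had 36 of 74 tested positions called in shDKC1 and 43 in HCT116, including 13 and 15 U. KRT18 had 7 of 21 in shDKC1 and 11 in HCT116. KRT19 had 4 of 16 in shDKC1 and 8 in HCT116, and FAT1 had 8 of 15 in shDKC1 and 9 in HCT116. CLDN4 had 1 tested position. CLDN3, EPCAM and CDH1 had none. The HCT116 counts were the higher ones in the keratins and FAT1, but a count says nothing of a difference between populations, which was tested as an interaction.

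**Figure D3:**
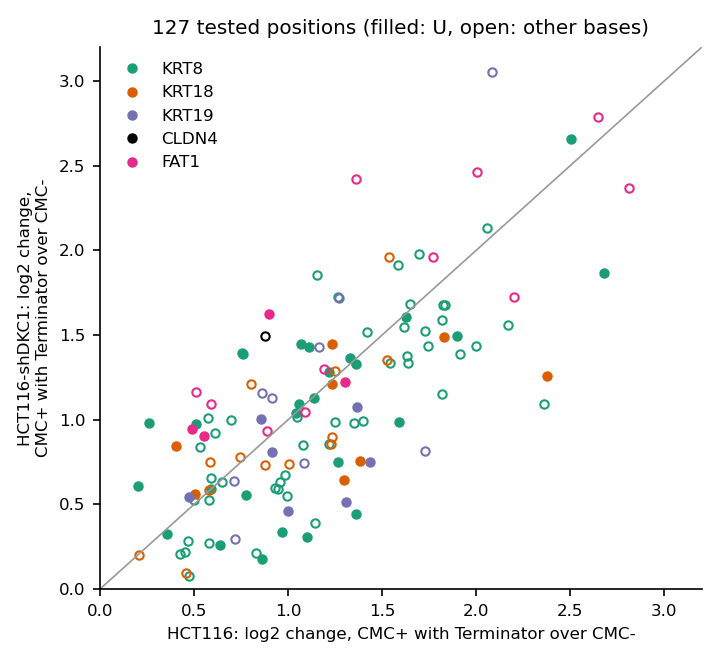
Log2 change of the stop ratio, CMC+ with Terminator against CMC-, in HCT116-shDKC1 (y axis) and in HCT116 (x axis) at each of the 127 tested member positions, coloured by gene; filled points are U, open points other bases, and the line marks equal change. The points scatter about the line and all lie above 0, the side that listing fixes.

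In KRT8, the U at nt 1477 stood out among named U. Its stop percentages were 27.2 and 17.0 in shDKC1 CMC+ with Terminator, against 2.10 and 4.04 in shDKC1 CMC-. In HCT116 they were 23.5 and 24.4, against 5.52 and 3.18 in CMC-. The CMC+ and CMC- libraries did not overlap in either population. Listing fixes that order within each pair, and this U was named for its high HCT116 CMC+ ratio. The log2 change was 2.65 ± 0.54 (SE; adjusted p = 1.22e-05, edgeR) in shDKC1 and 2.51 ± 0.50 (adjusted p = 7.95e-06, edgeR) in HCT116. The bases beside it were called as well: the A at nt 1476 changed by 2.13 in shDKC1 and 2.06 in HCT116 on the log2 scale (the HCT116 call was lost with TMM), and the G at nt 1478 was called in both. The rise was therefore not limited to the U. The call at nt 1477 held in every fit run, with each of the 8 libraries left out in turn and under all 6 other settings in each population.

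The KRT8 U at nt 426 had 7.53% and 7.79% in shDKC1 CMC+ with Terminator, against 2.99% and 1.44% in CMC-. In HCT116 it had 8.88% and 6.38%, against 1.40% and 0.91% in CMC-. All CMC+ values lay above all CMC- values, an order that listing fixes within each pair. The log2 change was 1.86 ± 0.48 (adjusted p = 0.000618, edgeR) in shDKC1 and 2.68 ± 0.57 (adjusted p = 2.9e-05, edgeR) in HCT116; the shDKC1 call was lost without either replicate 2 library of shDKC1 and with DESeq2. The most covered KRT8 U, at nt 1347, was not called. Its change was 0.34 (adjusted p = 0.511, edgeR) in shDKC1, which took the other sign with library totals or TMM in place of covering reads, and 0.97 (adjusted p = 0.0907, edgeR) in HCT116. Deep coverage of a KRT8 position thus did not by itself go with a call.

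In KRT18, the partner of KRT8 in the filament, the U at nt 965 had 9.78% and 9.38% in shDKC1 CMC+ with Terminator, against 3.85% and 2.92% in CMC-. In HCT116 it had 6.86% and 10.3%, against 2.42% and 2.29%. The groups did not overlap, an order that listing fixes within each pair. The change was called in shDKC1 (log2 1.49, adjusted p = 0.0115, edgeR) and in HCT116 (log2 1.83, adjusted p = 0.00493, edgeR). The U at nt 280 was more uneven. It had 25.0% and 9.74% in shDKC1 CMC+ with Terminator, against 8.91% and 5.61% in CMC-, and 24.3% and 12.0% in HCT116, against 10.2% and 5.06%. Replicate 1 was the higher library in each of the 4 groups, and the position was called in shDKC1 (log2 1.21, adjusted p = 0.0189, edgeR) and in HCT116 (log2 1.23, adjusted p = 0.0105, edgeR). The calls at both U were lost under several settings. At nt 280 the shDKC1 call was lost without either replicate 1 library of shDKC1 and the HCT116 call without any 1 of the 4 HCT116 libraries. At nt 965 the shDKC1 call was lost without either replicate 1 library or CMC- replicate 2, and the HCT116 call without HCT116 CMC- replicate 2. With TMM or DESeq2 both positions lost their calls in both populations; without the replicate block nt 280 lost both, and with library totals nt 965 lost that of shDKC1.

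In KRT19, a type I keratin, the U at nt 242 was called in both populations, with a log2 change of 1.07 (adjusted p = 0.049, edgeR) in shDKC1 and 1.37 (adjusted p = 0.00129, edgeR) in HCT116. The shDKC1 call was lost in all 8 fits without 1 library and under all 6 other settings, and the HCT116 call without either replicate 2 library of HCT116 or with DESeq2. The U at nt 499 had 10.2% and 19.7% in shDKC1 CMC+ with Terminator, against 8.46% and 9.29% in CMC-. In HCT116 it had 13.6% and 15.3%, against 2.58% and 7.46%. It was called in HCT116 (log2 1.44 ± 0.43, adjusted p = 0.0028, edgeR) and not in shDKC1. The HCT116 call was lost without either HCT116 replicate 1 library, and with library totals, TMM or DESeq2. In shDKC1 the log2 change was 0.75 (adjusted p = 0.152, edgeR), and it took the other sign with library totals or TMM in place of covering reads. The largest change of a tested KRT19 position was at an A, nt 1264. The coding region as counted here ends at nt 1261 and leaves out the stop codon, in which this A lies. It had 16.1% and 14.1% in shDKC1 CMC+ with Terminator against 2.33% and 1.11% in CMC-, a log2 change of 3.05 (adjusted p = 0.000104, edgeR). At this A the shDKC1 CMC- values rest on 2 and 1 stop reads. In HCT116 it had 16.4% and 13.9% against 4.13% and 2.86%, a log2 change of 2.09 (adjusted p = 0.000336, edgeR). Both of these calls held with each library left out, and the HCT116 call was lost with TMM.

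FAT1 had its largest changes at bases other than U. The A at nt 13042 changed by 2.37 in shDKC1 and by 2.81 ± 0.55 (adjusted p = 5.01e-06, edgeR) in HCT116, and the A at nt 13265 by 2.79 and 2.65 on the log2 scale. The G at nt 195 of the 5′ UTR changed by 1.96 in shDKC1 and 1.77 in HCT116. The U at nt 10638 had 30.2% and 19.6% in shDKC1 CMC+ with Terminator, against 4.26% and 15.3% in CMC-. In HCT116 it had 23.7% and 20.8%, against 6.93% and 10.7%. All 4 were called, but the U (log2 1.22, adjusted p = 0.0365, edgeR, in shDKC1 and 1.30, adjusted p = 0.00743, edgeR, in HCT116) changed less than the G before it, at 2.46 and 2.01. In HCT116 the calls of both A held with each library left out, while that of nt 195 was lost without either replicate 1 library of HCT116 and that of nt 10637 without either replicate 2 library. In shDKC1 that of nt 13042 was lost without either replicate 1 library, that of nt 13265 and of the G at nt 10637 without either replicate 2 library, and that of nt 195 without any 1 of the 4 shDKC1 libraries. The U at nt 10638 lost its shDKC1 call in 5 of 8 such fits and its HCT116 call in 3 of 8. It was also lost with TMM or DESeq2 in both populations, with library totals in HCT116, and without the block or over positions listed in both shDKC1 tables in shDKC1. With TMM the shDKC1 calls of nt 13042, 13265 and 195 were lost too, and with DESeq2 those of nt 195 in both populations.

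The most covered FAT1 U, nt 56 in the 5′ UTR, lay within the stretch of raised coverage. Its covering reads were 192 and 315 in shDKC1 CMC+ with Terminator against 82 and 76 in CMC-, and 288 and 341 in HCT116 against 69 and 118. Its stop percentages were 12.0 and 9.21 in shDKC1 against 7.32 and 3.95, and 10.1 and 12.9 in HCT116 against 8.70 and 7.63. The covering reads differed far more than the stop ratio, and neither population was called (log2 0.90, adjusted p = 0.108, edgeR, in shDKC1 and 0.55, adjusted p = 0.208, edgeR, in HCT116). With library totals or TMM in place of covering reads, which leave coverage in the comparison, both were called. The single tested CLDN4 position, a C at nt 394, had 33.3% and 30.6% in shDKC1 against 15.6% and 8.0%, and was called (log2 1.50, adjusted p = 0.0118, edgeR), but not without either replicate 2 library of shDKC1, with TMM or with DESeq2. In HCT116 it had 15.6% and 24.6% against 11.9% and 11.1%, and was not called (log2 0.88, adjusted p = 0.078, edgeR).

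**Figure D4:**
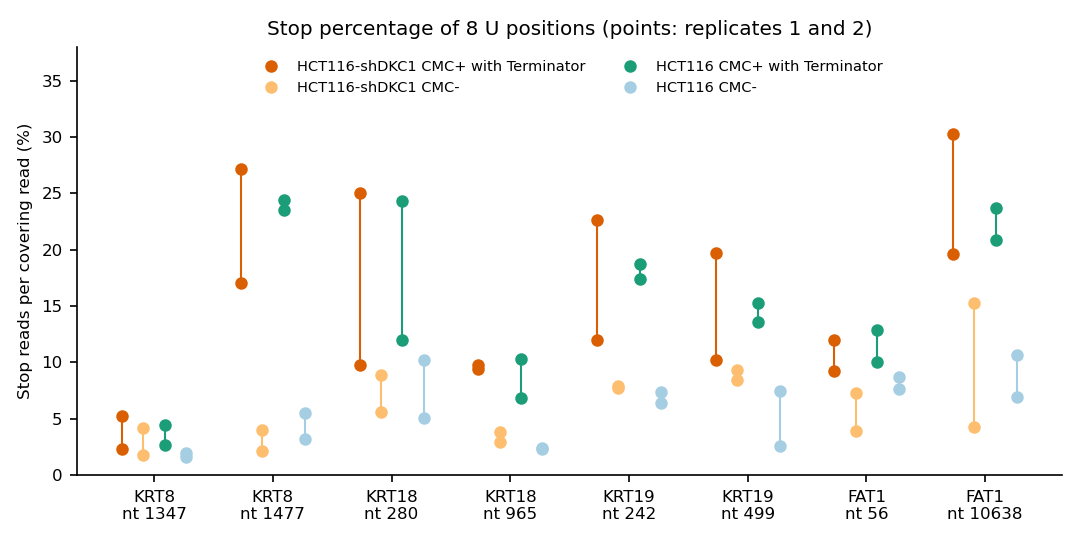
Stop reads as a percentage of covering reads (y axis) at 8 U of KRT8, KRT18, KRT19 and FAT1 (x axis, nt in the transcript); each point is 1 of 2 replicates and lines join the replicates of a group. At KRT8 nt 1477 the CMC+ with Terminator libraries lie between 17.0% and 27.2% and the CMC- libraries between 2.10% and 5.52%; at KRT8 nt 1347 the ranges overlap.

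The sparse members can be given only as ranges. EPCAM was listed at 11 and 10 positions in the shDKC1 Terminator tables and at 8 and 10 in those of HCT116, with 5 to 41 stop reads a position. CLDN3 had 2 and 3 in shDKC1 and 2 and 8 in HCT116. CDH1 had 2 and 0 in shDKC1 and 2 and 4 in HCT116, with at most 9 stop reads. None was listed at the same position in all 4 tables, so their stop ratios were not compared.

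Sequence around the U was described with motifs of enzymes known to act on mRNA. GTTCNANNC, the motif of the human synthase TRUB1, had a listed member U at either of its T letters in 3 of 1452 cases (0.207%, against 0.379% of all U listed in HCT116 or shDKC1 tables), all in FAT1 and 2 of them in 1 copy of the motif. The 2 forms of the PUS7 motif, TNTAA and TNTAG, were found at 2 (0.138%, against 0.609%) and 11 (0.758%, against 0.73%). Only the RNA strand was searched, with the listed U at the third letter of the PUS7 forms, and the motifs cannot share that U. None of the 45 tested U held one. Of the 16 U called in both populations, 9 were followed by G, 4 by C, 2 by A and 1 by U, while 45.8% of all tested U were followed by G. A motif match or its lack in these windows is a description of letters only.

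The effect of lowering DKC1 on the response to CMC was tested as an interaction, shDKC1 against HCT116. No member position was called: edgeR called 0 of 127 and DESeq2 0, and 0 had an unadjusted p below 0.05 in edgeR, beside 2.58% of all positions. Over all 26153 positions 3 were called, all lower in shDKC1 (0.0115%). The members' median difference was -0.06 on the log2 scale, with a range of -1.27 to 1.06, beside -0.07 over all positions, and 74 of 127 were below 0. Single positions were not tightly bounded. The difference was 0.15 (95% interval -1.03 to 1.33) at KRT8 nt 1477, -0.69 (-1.89 to 0.52) at KRT19 nt 499, and -0.02 (-1.27 to 1.23) at KRT18 nt 280, where the sign turned with library totals or TMM. These intervals leave room for a 2-fold change either way at KRT8 nt 1477, and a call missed does not show that the populations responded alike.

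CMC without Terminator was compared with CMC- in HCT116 alone, with lower library totals. These totals do not measure depth alone: HCT116 CMC- replicate 1 had 27272107 where whole reads were counted and 8940353 here. At listed member positions the median covering reads were 76 and 91.1 in CMC+ without Terminator, against 73 and 88 in CMC+ with Terminator. Of 114 tested member positions, 43 of them U, none passed (0 in edgeR, 0 in DESeq2) and 10 had an unadjusted p below 0.05, beside 6.45% of all positions; the smallest adjusted p was 0.26 (edgeR). Over all 20660 positions 1.65% were called, with 4.45% of U, 0.528% of other bases and 0.0775% of protein-coding positions. The members' median log2 change was 0.39, beside 0.20 over all positions. At KRT19 nt 499 the log2 change was 0.38 and at FAT1 nt 10638 it was 0.37, both with an adjusted p of 0.909 (edgeR). Only 14 member positions were tested both ways. There the median change was 0.86 with Terminator and 0.43 without it, and the Terminator value was the larger at 12 of 14. Over all positions tested in each comparison the medians were 0.64 with Terminator and 0.20 without it. How often the Terminator value was the larger among all positions tested both ways was not counted. Library totals and the counting of shared reads differed between these tables, and their part in the difference was not tested.

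Transcript levels in shDKC1 and HCT116 were set side by side through the CMC- libraries, whose covering reads were summed per gene over positions listed in all 4 Terminator tables. A read is counted once for each position it covers, so the sums stand for level only by proxy. In bulk cells, fewer cells with a transcript and less of it per cell cannot be told apart. FAT1, KRT19 and CLDN4 were lower in shDKC1, while KRT8 and KRT18 did not pass the test. Of 2161 genes, 0.602% were called lower and 0.139% higher at an adjusted p under 0.05, and 3 of the 5 tested members were called, all lower.

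FAT1 had 14.2 and 16.9 covering CPM (counts scaled to library size by TMM) in shDKC1, against 22.9 and 26.6 in HCT116, a log2 change of -0.67 ± 0.15 (SE; adjusted p = 0.00512, edgeR). KRT19 had 33.8 and 34.9 in shDKC1, against 46.8 and 54.5, a log2 change of -0.56 ± 0.14 (adjusted p = 0.0166, edgeR). CLDN4 had 1.3 and 1.4 in shDKC1, against 2.1 and 2.4, a log2 change of -0.79 ± 0.21 (adjusted p = 0.0328, edgeR), from 2 positions only. In each of the 3 both shDKC1 libraries lay below both HCT116 libraries. The share of all tested genes that separate this way was not counted. KRT8 had 193.5 and 229.1 in shDKC1 against 218.5 and 253.5 (log2 -0.16, adjusted p = 0.921, edgeR). KRT18 had 45.9 and 54.9 in shDKC1 against 50.4 and 59.8 (log2 -0.13, adjusted p = 0.94, edgeR). In both of these keratins the libraries of the 2 populations overlapped.

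These calls were fragile. No member was called with library totals in place of TMM, with 1 position per gene, or without HCT116 CMC- replicate 2 or shDKC1 CMC- replicate 1. Without shDKC1 CMC- replicate 2 FAT1 alone was called. In the CMC+ with Terminator libraries, an alternative chosen after seeing the data, FAT1 had 12.3 and 15.5 in shDKC1 against 18.6 and 21.7, and KRT19 had 22.1 and 29.4 against 32.9 and 41.9. The log2 changes there were -0.53 for FAT1, -0.54 for KRT19 and -0.86 for CLDN4, close to those of the CMC- libraries, with adjusted p of 0.538, 0.572 and 0.538 (edgeR); 0.089% of 2247 genes were called lower and 0.0445% higher. KRT18 took the other sign there, at 0.02. The log2 changes of FAT1, KRT19 and CLDN4 were below 0 in every setting run, some of which left 1 library in a population.

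Other keratin, junction and epithelial genes gave no call. Of 49 such genes, 8 had enough positions to be tested, and 0 were called by edgeR and 0 by DESeq2. In edgeR 2 lower and 0 higher had an unadjusted p below 0.05. These were SPINT2 and TJP1, which ranked 64 and 98 by p among the 2161 genes tested. The share of all genes below 0.05 was not counted. The median log2 change of the 8 tested list genes was -0.13, with 6 of 8 below 0, beside 0.002 over all genes and -0.56 over the 5 members.

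**Figure D5:**
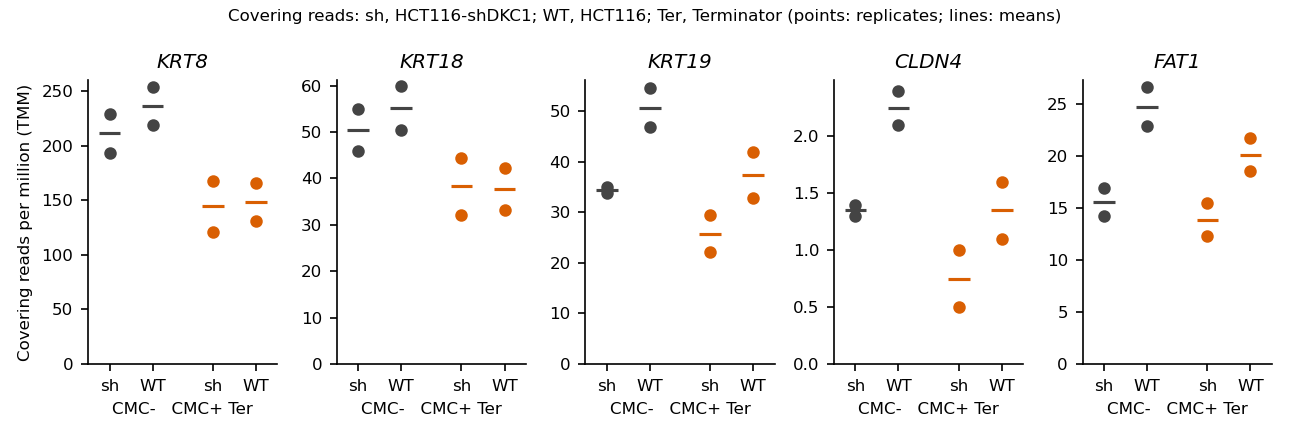
Covering CPM (TMM, y axis from 0) of the 5 tested members in HCT116-shDKC1 (sh) and HCT116 (WT), in the CMC- and in the CMC+ with Terminator (Ter) libraries; points are replicates and lines means. FAT1, KRT19 and CLDN4 are lower in both shDKC1 libraries than in both HCT116 libraries with either library kind, while the points of KRT8 and KRT18 overlap.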

How the data were processed

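The tables list RNA positions (hg38) with stop and covering reads of a treated and a control library, and the library-scaled RPM value of each. The submitters' processing notes name cutadapt 2.8, STAR and hg38; the counting step is not given in the sources used here. The deposited read counts are whole in the HCT116 and shDKC1 Terminator tables and are estimated counts with fractions in the other tables, which were rounded before testing. The deposited RPM values gave the library totals. Control columns of the HCT116 tables without Terminator were matched to the HCT116 CMC- libraries through the table names. In the values, no listed position has fewer than 5 stop reads in the treated library, fewer than 1 in the control, or a treated ratio below that of the control.

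Stop reads were fitted with edgeR 4.0.16 (R 4.3.3, glmQLFit and glmQLFTest) with log covering reads as offset. Within a population the replicate number was a block, because the series' design text makes each replicate a CMC-/CMC+ pair. The deviations of paired libraries correlated at 0.33 in shDKC1 and 0.16 in HCT116. Same-numbered libraries of different populations, which no label pairs, correlated at 0.09 to 0.2. The filter was 10 stop reads in 2 libraries, and p-values were adjusted over all positions. Gene sums were fitted with TMM. DESeq2 1.42.0 and the other alternatives appear in the closing section. The fits were tested on simulated data. A standard error is the size of the log2 change divided by the normal quantile of its two-sided p, which carries the Poisson bound of the test, and a 95% interval is 1.96 such SE to each side.

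The 8 genes and the gene lists were chosen with earlier results of these data known. Named positions were the called ones and, per gene, the U with the most covering reads and the U with the highest HCT116 CMC+ with Terminator stop ratio among those with at least 20 covering reads; U that were not tested are not described. From the called positions the text gives values for the 8 with the largest smaller change of both populations, the best U of each gene, and CLDN4. That choice, the 200 nt window, the 2 nt distance and the reference transcripts, taken to hold most listed positions (for FAT1 with the first exon of a transcript that holds them), were made after seeing the data.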

Additional observations from a re-analysis of the deposited data

How the results depend on the processing

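In shDKC1, 19 U and 37 other member bases were called; library totals as size gave 9 U, TMM 7 and 14, DESeq2 2 and 13, and positions listed in both shDKC1 tables, added after seeing the data, 11 and 24. In HCT116, 25 U and 46 other bases were called; totals gave 11 and 30, TMM 10 and 13, DESeq2 5 and 18, and no filter 42 U. Leaving out 1 library gave 6 to 16 U and 18 to 37 others in shDKC1, and 7 to 25 U and 18 to 47 others in HCT116, the fewest for HCT116 without its CMC+ with Terminator replicate 2. No replicate block gave 14 U and 35 others in shDKC1 and 22 and 43 in HCT116. The shDKC1 change of KRT8 nt 1347 became -0.37 with totals and -0.78 with TMM, and that of KRT19 nt 499 -0.19 and -0.63. The difference between populations stayed at 0 called members; at KRT18 nt 280 it became 0.068 with totals and 0.12 with TMM. It ranged from -0.45 to 0.24 there and from -0.45 to 1.14 at KRT8 nt 1477 without 1 library. CMC alone gave 0 U and 0 to 1 other base without 1 library, and -0.066 to 0.57 at KRT19 nt 499.

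For covering reads, members called were 0 of 5 with totals, with 1 position per gene and with the CMC+ Terminator libraries (KRT18 0.022), and 0 to 3 without 1 library. DESeq2 called 2, not CLDN4 (adjusted p 0.099). Same-numbered CMC- libraries deviated together (0.4 for covering reads), but the labels pair no knockdown with a wild-type library; a replicate block called the same number of members and 154 genes in all, against 16. Other settings called 3 (totals), 10 (DESeq2), 3 (1 position per gene), 3 (CMC+ Terminator libraries) and 3 to 22 genes (without 1 library). The cause of these changes was not tested. HEK293T tests were not run, as no member position was listed in all 4 of its tables. Few covering reads limit single positions.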
